A study of Mus musculus with 18 samples.

Results

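Dusk was compared with dawn in mouse liver, as the expression of every gene in the livers collected at zeitgeber time (ZT) 13 against those collected at ZT1. With the lights on from ZT0 to ZT12, ZT1 lies 1 h into the light and ZT13 lies 1 h into the dark, 12 h apart. The livers were chosen by their labelled time alone, which gave 6 of the 18 livers of the series, 3 per group, each from its own mouse. The mice were wild-type (WT) males of 8 to 9 weeks under a cycle of 12 h light and 12 h dark, sampled at ZT1, 5, 9, 13, 17 and 21, and the groups differed in no other label. More mice were kept in each group than were sequenced, and the RNA of best quality was taken. Whole livers were used, and time of day and food intake cannot be told apart. Polyadenylated RNA was sequenced, and the deposited values are read counts estimated per gene and scaled to the size of each library, called normalized values here.

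The liver clock is a feedback loop. BMAL1 (encoded by Arntl) pairs with CLOCK or NPAS2 and activates genes through a DNA motif called the E-box, among them the Per and Cry genes, whose proteins then repress that pair. REV-ERB proteins (Nr1d1, Nr1d2) repress and ROR proteins activate Arntl through ROR elements, and the proline and acidic amino acid rich factors DBP, TEF and HLF activate their own targets through D-boxes, where NFIL3 represses them. Mice rest and fast in the light and feed in the dark, so in liver the clock runs together with insulin, glucocorticoids and body temperature. ZT1 follows the night of feeding, and ZT13 follows the day of rest with the first hour of the night.

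Differences are given on the scale of log2(normalized value + 1) as ZT13 minus ZT1 with their standard error (SE), for 3 livers against 3. They understate the change of genes with low values. They were tested with limma, a linear model for many genes that took its spread from all 18 livers. A gene is called higher or lower when the *P*-value adjusted by the Benjamini–Hochberg procedure over all 14449 genes tested is below 0.05. Values per liver are listed in the order of replicates 1, 2 and 3, which is only a naming order.

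The 6 livers held between 10747428 and 15457407 estimated reads. Across genes, the Pearson correlation of log2 values was 0.986 to 0.991 within a group and 0.973 to 0.981 between ZT1 and ZT13. Mitochondrial genes took 8.99% to 9.45% of the total at ZT1 and 7.20% to 8.95% at ZT13. None of 8 hepatocyte markers was called, and their summed value was 108400 to 117800 at ZT1 and 107900 to 117000 at ZT13. Of the markers of other cells, 0 of 7 for Kupffer cells, 0 of 6 for sinusoidal endothelium, 0 of 6 for stellate cells, 0 of 3 measured for lymphocytes and 0 of 5 for red blood cells were called. Still, all 7 Kupffer and all 6 endothelial differences lay above 0, with medians of 0.31 and 0.27. All 5 red blood cell and all 3 lymphocyte differences lay below 0, with medians of -0.58 and -0.24, and the stellate ones were split 3 to 3. Sox9 was lower among 5 cholangiocyte markers (-0.75 ± 0.19), a call lost without ZT1 replicate 2 (-0.63). Of these 5 differences, 3 lay below 0 and 2 above, with a median of -0.05. Ly6g was higher among 3 measured neutrophil markers (0.56 ± 0.16), a call lost without ZT1 replicate 1 (0.50), without ZT13 replicate 1 (0.49) and without ZT13 replicate 2 (0.54). The other 2 neutrophil differences lay below 0, and the median of the 3 was -0.24. All 3 markers had low values, with sums of 1.031 to 1.463 at ZT1 and 1.129 to 1.475 at ZT13. All 7 Kupffer markers were highest of the ZT1 group in replicate 1 and lowest in replicate 3, with sums of 124 to 258 at ZT1 and 201 to 269 at ZT13. ZT13 replicate 1 had the lowest value of its group for all 5 red blood cell markers, whose sums were 209 to 407 at ZT1 and 108 to 242 at ZT13. The part of these differences in the results was not tested. In whole tissue, fewer cells of a type and less RNA per cell cannot be told apart.

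At ZT13, 1137 genes were higher than at ZT1, which is 7.87% of all genes tested, and 1174 were lower, which is 8.13%. The median difference over all genes was 0.00041, a centre that the scaling of the libraries holds near 0. Among the genes called, the median size of the difference was 0.57 for the higher and 0.59 for the lower ones. A difference of at least 1 on the log2 scale was seen in 181 higher and 170 lower genes, and one of at least 2 in 29 and 22. Without each of the 6 livers in turn, 546 of the higher and 589 of the lower genes kept their call every time, and the count of higher genes was 750 without ZT1 replicate 2. In 4756 genes, 32.9% of those tested, the 3 ZT13 values did not overlap the 3 ZT1 values. This held for 97.4% of the higher and 98.6% of the lower genes, so for a called gene it adds little to the call. With 3 livers against 3, an exact permutation test of a single gene cannot go below *P* = 0.1.

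**Figure D1:**
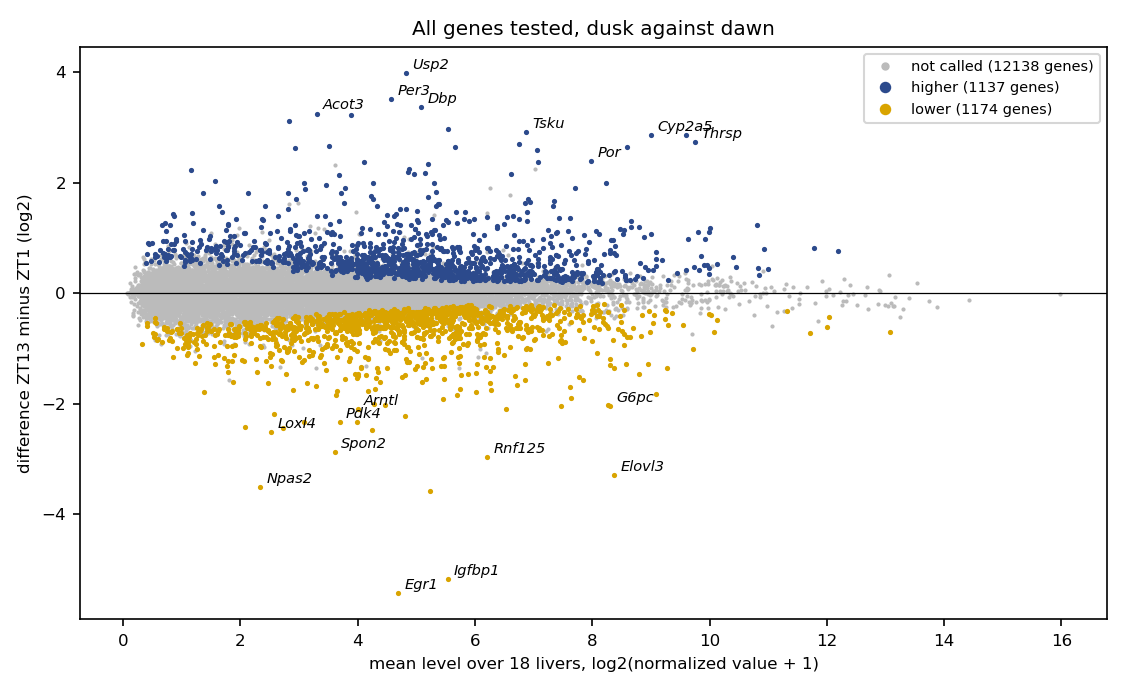
Difference between ZT13 and ZT1 (log2, vertical axis) against the mean level over the 18 livers, log2(normalized value + 1) (horizontal axis), 1 point per gene. The 1137 higher genes are in blue, the 1174 lower genes in yellow and the 12138 genes not called in gray, with Egr1 and Igfbp1 at the bottom.

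Nearly every clock gene differed between dusk and dawn, although few had their highest mean at ZT13. Per2, Hlf and Noct were highest at ZT13, and the other higher repressor and output genes were highest at ZT9 except Bhlhe40 (ZT5). Of 5 clock activator genes, 4 were lower. Of 10 repressors, 7 were higher, 1 was lower and 2 were not called. Of 7 output genes, 6 were higher and 1 was lower. The values of ZT13 and ZT1 did not overlap in 5 of 5, 9 of 10 and 7 of 7 of these genes, against 32.9% of all genes tested. Since nearly all of these genes were called, this mostly repeats the calls.

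Among the activators, Arntl (chromosome 7, from 113207465 to 113314126 of GRCm38) had normalized values of 29.6, 33.3 and 31.8 at ZT1 and 7.91, 5.78 and 6.38 at ZT13. It fell by 2.09 on the log2 scale (SE 0.24, limma adjusted *P* = 9.54e-06), and all 3 ZT13 livers lay well below the ZT1 livers. Npas2 (chromosome 1, from 39193731 to 39363236), which can stand in for Clock, had 10.8, 10.5 and 12.3 at ZT1 and 0.0410, 0.0342 and 0.130 at ZT13. These were 156, 115 and 128.0 estimated reads at ZT1 against 0, 0 and 1 at ZT13, so that the gene was at or near the lowest measurable value at dusk and no ratio is given. Its difference of -3.51 ± 0.18 (adjusted *P* = 1.12e-09) therefore depends on the offset. Clock itself fell less, with 85.04, 73.8 and 72.8 at ZT1 and 40.0, 48.2 and 41.9 at ZT13 (-0.82 ± 0.10, adjusted *P* = 2.58e-05). Rora, which encodes a ROR activator, was lower as well, with 77.2, 80.4 and 87.5 at ZT1 and 48.7, 58.9 and 59.9 at ZT13 (-0.54 ± 0.12, adjusted *P* = 0.00536).

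All 3 Per genes, which encode the period repressors, were higher at dusk. Per1 had 0.727, 1.05 and 2.53 at ZT1 and 24.9, 17.1 and 21.0 at ZT13 (3.23 ± 0.32, adjusted *P* = 1.43e-06). Per2 had 11.04, 13.6 and 11.9 at ZT1 and 95.7, 113 and 99.1 at ZT13, 8.42 times the mean at ZT1 (2.97 ± 0.23, adjusted *P* = 1.04e-07). Per3 (chromosome 4, from 151003652 to 151044665) had 1.696, 2.32 and 1.39 at ZT1 and 27.0, 32.7 and 32.8 at ZT13, 17.1 times as much (3.51 ± 0.19, adjusted *P* = 1.12e-09). The groups lay far apart in each. The cryptochromes differed from them: Cry2 was higher by 0.73 ± 0.12, while Cry1 had 22.0, 28.1 and 26.1 at ZT1 and 27.7, 26.9 and 24.7 at ZT13, with overlapping groups and a difference of 0.06 ± 0.17 (adjusted *P* = 0.854) that turned to -0.035 without ZT1 replicate 1. Cry1 passed through its low point between these times, with means of 25.4, 6.36, 8.99, 26.4, 45.9 and 47.6 from ZT1 to ZT21.

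The REV-ERB genes also split. Nr1d2 was higher, with 17.9, 16.6 and 20.4 at ZT1 and 37.7, 51.0 and 56.8 at ZT13 (1.34 ± 0.15, adjusted *P* = 4.84e-06), and Nr1d1 was lower, with 17.0, 12.5 and 20.4 at ZT1 and 7.36, 6.09 and 11.7 at ZT13 (-0.93 ± 0.26, adjusted *P* = 0.0204). The call of Nr1d1 was lost without ZT1 replicate 1 (-0.90), without ZT1 replicate 3 (-0.78), without ZT13 replicate 1 (-0.87) and without ZT13 replicate 2 (-0.75). Both genes had been far higher in between, Nr1d1 with a mean of 117 at ZT5, so ZT1 and ZT13 compare its rising with its falling side. Bhlhe40, which encodes the repressor DEC1, rose by 1.62 (SE 0.26), and its relative Bhlhe41 had 0.173, 0.409 and 0.526 at ZT1 and 1.42, 0.992 and 2.30 at ZT13, a difference of 0.89 ± 0.31 that was not called (adjusted *P* = 0.0627) although the groups did not overlap. It was called with an offset of 0.5 (1.23), of 0.1 (1.84) and with the 6 livers alone (0.89). Ciart, which encodes the repressor CHRONO, had 0.104, 0.0455 and 0.430 at ZT1 and 9.14, 8.02 and 10.6 at ZT13 (3.11 ± 0.30, adjusted *P* = 1.4e-06), from 5 estimated reads over the ZT1 livers to 349 over those of ZT13.

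Among the output genes, Usp2, Dbp, Tef, Hlf, Wee1 and Noct rose and Nfil3 fell. Usp2 (chromosome 9, from 44067021 to 44095627), which encodes a deubiquitinase, had 2.46, 2.32 and 1.58 at ZT1 and 49.95, 43.0 and 51.3 at ZT13, 22.7 times as much, and its difference of 3.98 ± 0.22 (adjusted *P* = 1.46e-09) was the largest rise on this scale. That order depends on the offset, since over the settings run Ciart reached 6.19 and Dbp 5.44, against 4.49 for Usp2. Dbp (chromosome 7, from 45705088 to 45710203) had 0.338, 0.439 and 0.148 at ZT1 and 9.89, 12.1 and 16.1 at ZT13 (3.37 ± 0.18, adjusted *P* = 1.12e-09). Tef (chromosome 15, from 81802421 to 81826863) had 27.0, 25.4 and 29.2 at ZT1 and 163, 175 and 169 at ZT13 and in this test the lowest *P*-value of all genes (2.59 ± 0.10, adjusted *P* = 6.29e-12). In all 3 genes the spread within a group was small beside the difference. Hlf rose by 1.46 (SE 0.12), and the mitotic kinase gene Wee1 by 1.99 (SE 0.20). Noct, which encodes the NADP(H) phosphatase nocturnin, rose by 1.08 (SE 0.16). Nfil3, the repressor of the same D-box targets, fell by 1.34 (SE 0.13, adjusted *P* = 9.13e-07), with 57.5, 77.2 and 73.3 at ZT1 and 28.6, 26.6 and 24.7 at ZT13.

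**Figure D2:**
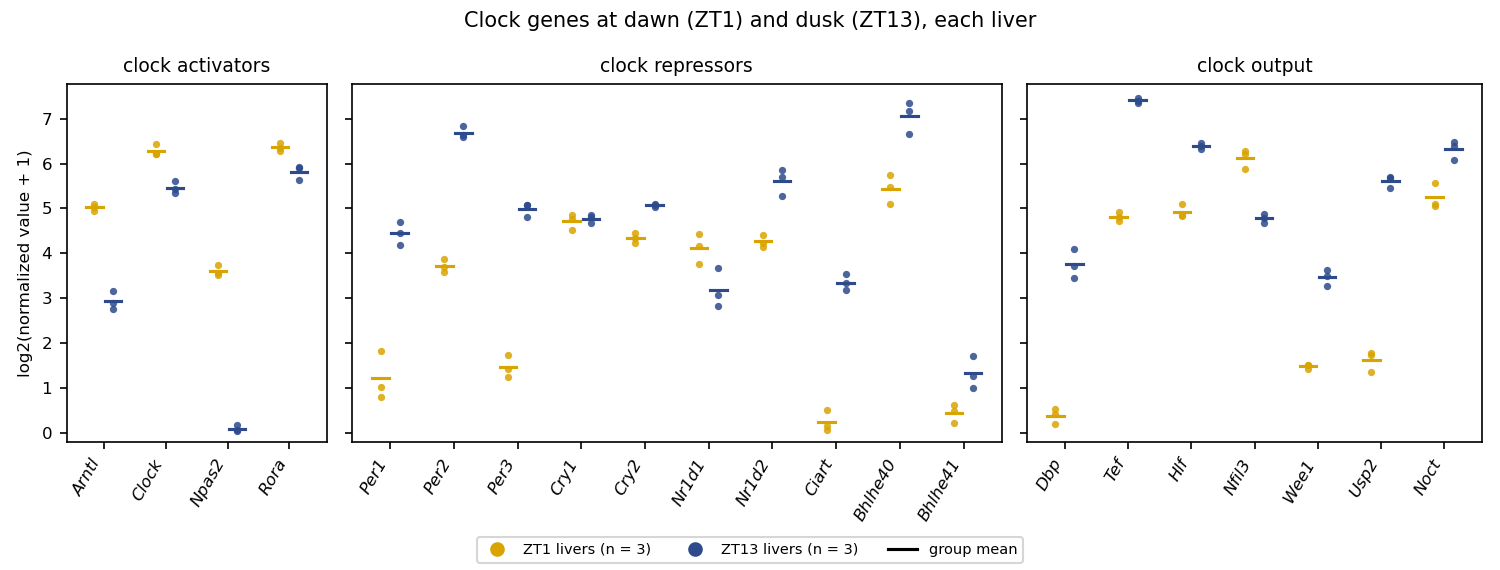
Level of 21 clock genes, log2(normalized value + 1), in each of the 3 ZT1 livers (yellow) and 3 ZT13 livers (blue), with the group mean as a line. Arntl and Npas2 lie lower at ZT13, the Per genes, Ciart, Dbp, Tef and Usp2 lie higher, and the groups of Cry1 overlap.

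The promoters of 3 of these genes are shown because each carries a clock motif, taken from RefSeq on GRCm38.p6 as the 250 bases before the gene start, 5′ to 3′ on the strand of the gene. In capitals are the E-box CACGTG in Ciart, the D-box TTANGTAA in Per3, and in Nfil3 the core TAGGTCA of a ROR element, read on the opposite strand as TGACCTA.
Ciart (chr3:95882229-95882478, - strand): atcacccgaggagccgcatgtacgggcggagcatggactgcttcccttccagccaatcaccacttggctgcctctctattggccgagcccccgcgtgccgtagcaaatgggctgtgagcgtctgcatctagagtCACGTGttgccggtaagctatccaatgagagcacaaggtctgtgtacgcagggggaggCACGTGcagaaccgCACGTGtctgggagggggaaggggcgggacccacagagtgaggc
Per3 (chr4:151044666-151044915, - strand): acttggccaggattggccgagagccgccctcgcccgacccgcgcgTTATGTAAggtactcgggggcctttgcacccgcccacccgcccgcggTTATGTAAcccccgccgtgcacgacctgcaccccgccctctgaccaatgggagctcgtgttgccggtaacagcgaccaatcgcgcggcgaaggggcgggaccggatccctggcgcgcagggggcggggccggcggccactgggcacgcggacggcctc
Nfil3 (chr13:52981040-52981289, - strand): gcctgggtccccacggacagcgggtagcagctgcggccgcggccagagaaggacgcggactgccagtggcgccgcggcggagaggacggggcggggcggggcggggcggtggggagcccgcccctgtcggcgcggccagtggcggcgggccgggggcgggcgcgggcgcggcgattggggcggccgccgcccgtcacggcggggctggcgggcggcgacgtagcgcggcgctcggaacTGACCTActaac
Ciart held 3 E-boxes, starting 116, 58 and 44 bases before the start, Per3 held 2 D-boxes, starting 205 and 158 bases before it, and Nfil3 held 1 ROR core, starting 12 bases before it. Searched on both strands of all 32851 promoters of the table, from 250 bases before to 50 after the start, the E-box was in 7.15%, the D-box in 2.32% and the ROR core in 2.61%. Of the genes tested, 10326 had a promoter in the table. These were counted per gene, with a match at any of its starts, so a gene with several starts had more chances. The E-box was in 11.5% of these genes. It was in 14.5% of the 851 higher and in 11.1% of the 873 lower genes with a promoter. The ROR core was in 2.55% of the tested, 2.23% of the higher and 3.67% of the lower genes, and the D-box in 1.99%, 2.35% and 2.75%. Among the clock genes, the E-box was also in Per1 and Tef, which rose, and in Cry1 and Bhlhe41, which were not called. The D-box was in 1 of the 8 repressor and 0 of the 6 output genes with a promoter. A match says only that these letters are there.

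By the naming rule on this scale, 2 of the 8 largest rises and 7 of the 8 largest falls lay outside the clock lists. Acot3, a peroxisomal acyl-CoA thioesterase, had 0.462, 0.892 and 1.996 at ZT1 and 16.7, 25.8 and 14.1 at ZT13 (3.25 ± 0.66, adjusted *P* = 0.00245). Tsku (chromosome 7, from 98350668 to 98361328), which encodes a protein secreted by liver, had 42.5, 24.5 and 35.0 at ZT1 and 241, 294 and 238 at ZT13, 7.58 times as much (2.91 ± 0.35, adjusted *P* = 1.33e-05). Both were highest of the 6 times at ZT13.

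Egr1, a transcription factor induced within minutes by growth factors, had the largest fall on this scale, while over the settings run Npas2 reached -7.67 against -6.24 for Egr1. Its values were 112, 122 and 86.6 at ZT1 and 0.697, 1.68 and 2.39 at ZT13 (-5.43 ± 0.62, adjusted *P* = 8.89e-06), so that its mean at ZT1 was 67.4 times that at ZT13. Igfbp1 (chromosome 11, from 7197782 to 7202546), an insulin-repressed binding protein of insulin-like growth factors, had 96.0, 125 and 198 at ZT1 and 1.52, 1.33 and 7.86 at ZT13 (-5.17 ± 0.61, adjusted *P* = 1.17e-05). ZT13 replicate 3 stood above the other 2 ZT13 livers but far under every ZT1 liver. The fatty acid elongase gene Elovl3 (chromosome 19, from 46131897 to 46135694) had 806, 831 and 737 at ZT1 and 53.2, 79.6 and 118 at ZT13 (-3.30 ± 0.23, adjusted *P* = 2.9e-08). Rnf125, a ubiquitin ligase gene, fell by 2.97 (SE 0.27), Spon2, for a secreted matrix protein, by 2.88 (SE 0.19), and Loxl4, for a lysyl oxidase, by 2.51 (SE 0.21). In each of these genes no ZT13 liver reached the lowest ZT1 liver, which the naming rule required of them.

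The lists of functional genes differed widely in how many members were called, against a background of 7.87% of all genes higher and 8.13% lower. These lists are small and were chosen with earlier results of these data known, so their counts describe them and support nothing beyond.

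**Figure D3:**
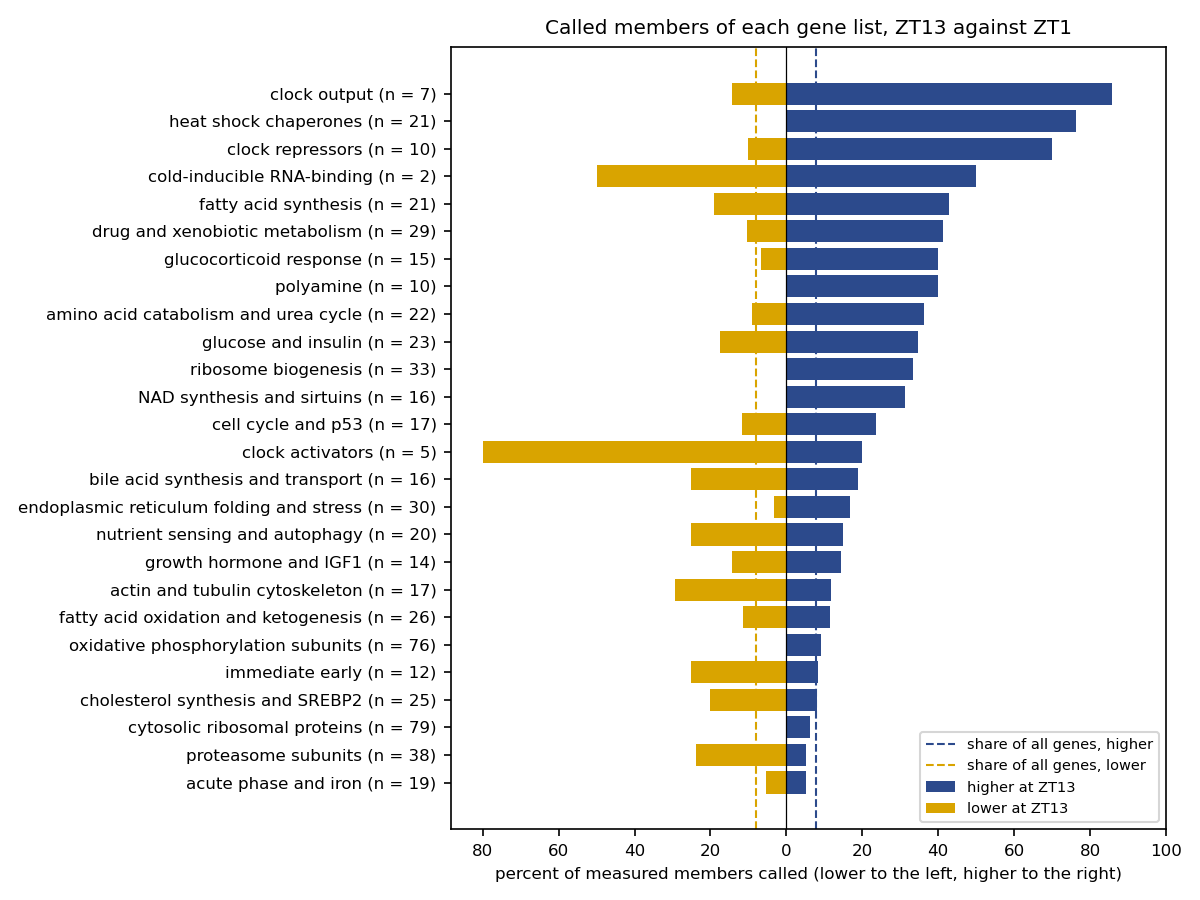
Percent of the measured members of each of the 26 gene lists called higher at ZT13 (blue, to the right) or lower (yellow, to the left), with n the members measured and dashed lines at the shares among all genes, 7.87% and 8.13%. Heat shock chaperones have 16 of 21 members higher and none lower, and clock activators 4 of 5 lower.

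Heat shock chaperones, which fold proteins and are induced by heat shock factor 1, were higher at dusk: 16 of 21 members rose, none was lower, and the median difference was 0.61. Hspa1b (chromosome 17, from 34956436 to 34959238), an inducible HSP70, had 19.2, 19.2 and 30.1 at ZT1 and 126, 189 and 68.0 at ZT13, 5.59 times as much (2.34 ± 0.30, adjusted *P* = 2.59e-05). Hspa8, the abundant constitutive HSP70, had 776, 766 and 1000.3 at ZT1 and 2145, 1972 and 1663 at ZT13 (1.19 ± 0.19, adjusted *P* = 0.000245). The HSP40 co-chaperone Dnajb1 had 18.6, 20.7 and 21.6 at ZT1 and 52.0, 49.2 and 36.8 at ZT13 (1.13 ± 0.13, adjusted *P* = 1.32e-05), and Dnaja1 had 267, 252 and 283 at ZT1 and 494, 608 and 477 at ZT13 (0.97 ± 0.14). None of these groups overlapped. Hsph1, an HSP110, rose by 1.21 (SE 0.25), Bag3 by 1.08 (SE 0.17) and Hsp90aa1 by 0.72 (SE 0.18). Hsf1 itself (0.08 ± 0.14, adjusted *P* = 0.739), the mitochondrial Hspd1 (0.10 ± 0.08) and Hspa4 (-0.14 ± 0.07) were not called, nor was Hspb1 (12.1, 13.9 and 14.3 at ZT1 and 25.04, 28.8 and 12.8 at ZT13, 0.62 ± 0.27), whose groups overlapped. Within the ZT13 group, replicate 3 had the lowest value in 15 of the 21 genes and replicate 2 the highest in 14.

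Of the 16 calls, 10 were kept without each liver in turn, and without ZT1 replicate 1 the count was 10. The call of Hsp90aa1 was lost without ZT1 replicate 1 (0.56). Hspa1a and Hspa1b are near copies, and reads may have been divided between them. The same list had 18 members higher at ZT17 than at ZT5, where 10.3% of all genes were, and 10 higher at ZT21 than at ZT9, where 6.16% were, and 10 of the 21 had their highest mean at ZT13 and 10 at ZT17.

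The promoters of 2 chaperone genes are shown for their heat shock element, GAANNTTC on either strand (in capitals), again as the 250 bases before the start from RefSeq on GRCm38.p6.
Hspa1b (chr17:34959239-34959488, - strand): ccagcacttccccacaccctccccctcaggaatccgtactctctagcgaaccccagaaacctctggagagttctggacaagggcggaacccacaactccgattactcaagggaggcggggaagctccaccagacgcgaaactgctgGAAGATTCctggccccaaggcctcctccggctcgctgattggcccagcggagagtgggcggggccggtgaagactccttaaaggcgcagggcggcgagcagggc
Dnaja1 (chr4:40722218-40722467, + strand): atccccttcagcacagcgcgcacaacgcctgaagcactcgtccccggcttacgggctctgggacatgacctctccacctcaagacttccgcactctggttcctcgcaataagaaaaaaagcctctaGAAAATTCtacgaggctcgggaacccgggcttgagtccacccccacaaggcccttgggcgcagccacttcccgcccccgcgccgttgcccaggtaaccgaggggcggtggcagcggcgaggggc
The element started 104 bases before the start of Hspa1b and 124 bases before that of Dnaja1. It was in 7.86% of all promoters. Counted per gene at any of its starts, it was in 7.09% of the tested genes with a promoter. It was in 8.23% of the higher and 7.67% of the lower ones, and in 10 of the 17 chaperone genes with a promoter. The longer form, in which NNGAA follows directly, was in 0.603% of all promoters, in 0.571% of the tested genes, in 1.76% of the higher and 0.458% of the lower ones, and in 4 of these 17 genes. Every match of the longer form is also a match of the shorter one. A list of heat shock chaperones favours this element in advance. The 10 genes include Hspb1 and Hspd1, which were not called. They also include the near copies Hspa1a and Hspa1b, and Hspe1, whose promoter overlaps that of Hspd1. A link between the element and the rise was not tested.

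The 2 cold-inducible RNA-binding genes moved apart. Cirbp had 13.0, 16.0 and 16.6 at ZT1 and 7.17, 6.67 and 8.38 at ZT13 (-0.94 ± 0.16, adjusted *P* = 0.00038) and was lowest of the 6 times at ZT13. Rbm3 had 24.7, 23.4 and 25.5 at ZT1 and 47.4, 55.5 and 52.4 at ZT13 (1.05 ± 0.17, adjusted *P* = 0.000268) and was highest there. In neither gene did the groups overlap.

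Glucose and insulin genes had 8 of 23 members higher and 4 lower. Among the higher ones, Gys2 (chromosome 6, from 142422613 to 142473109), the liver glycogen synthase, had 90.2, 94.0 and 113 at ZT1 and 238, 267 and 260.4 at ZT13 (1.36 ± 0.09, adjusted *P* = 2.83e-08). Slc37a4, which carries glucose-6-phosphate into the endoplasmic reticulum, rose by 1.58 (SE 0.16), the pyruvate kinase gene Pklr by 1.30 (SE 0.30), the glycogen targeting subunit Ppp1r3b by 1.06 (SE 0.24) and the glucose transporter Slc2a2 by 0.73 (SE 0.13). The gluconeogenic gene Fbp1 rose as well, by 0.41 (SE 0.08), and Foxo3 by 0.40 (SE 0.10), the latter with its call lost without ZT1 replicate 1 (0.27).

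The lower members were Igfbp1, Irs2, Ppp1r3c and G6pc. Irs2, the insulin receptor substrate, had 19.6, 38.2 and 44.3 at ZT1 and 5.53, 6.06 and 3.69 at ZT13 (-2.47 ± 0.27, adjusted *P* = 5.17e-06). G6pc, the glucose-6-phosphatase that ends gluconeogenesis and glycogen breakdown, had 288, 554 and 716 at ZT1 and 116, 88.9 and 156 at ZT13 (-2.04 ± 0.52, adjusted *P* = 0.0118), a call lost without ZT1 replicate 3 (-1.76). Ppp1r3c, another glycogen targeting subunit, fell by 2.09 (SE 0.45). All 4 were highest at ZT1 and lowest at ZT13 of the 6 times. Pck1, the other main gluconeogenic enzyme, had 292, 734 and 943 at ZT1 and 438, 261 and 376 at ZT13 (-0.74 ± 0.39, adjusted *P* = 0.22), with overlapping groups.

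Fatty acid synthesis had 9 of 21 members higher and 4 lower. Thrsp, an activator of lipogenesis, had 251, 256 and 389.5 at ZT1 and 1736, 1539 and 2806 at ZT13, 6.78 times as much (2.74 ± 0.35, adjusted *P* = 2.95e-05). Dgat2, which makes triglyceride, had 321, 317 and 341 at ZT1 and 676, 637 and 663 at ZT13 (1.01 ± 0.09, adjusted *P* = 7.27e-07). Srebf1, which encodes the lipogenic factor SREBP1, had 278, 293 and 283 at ZT1 and 707, 593 and 662 at ZT13 (1.19 ± 0.17, adjusted *P* = 0.000121). Acaca, the first committed enzyme, rose by 0.84 (SE 0.12), the elongase Elovl6 by 1.67 (SE 0.28) and Lpin1 by 2.15 (SE 0.44). Fasn, the fatty acid synthase, had 712, 651 and 988 at ZT1 and 1036, 1448 and 2379 at ZT13 (0.99 ± 0.26, adjusted *P* = 0.0145), and its call was lost without ZT1 replicate 1 (0.93), without ZT1 replicate 2 (0.86) and without ZT13 replicate 3 (0.67). The same held of Fads2 without ZT13 replicate 1 (0.59), and Mid1ip1 lost its call whichever of the 6 livers was left out. ZT13 replicate 2 was the lowest of its group in 14 of the 21 genes and ZT13 replicate 3 the highest in 12, for example in Thrsp. Lpin1 had 31.4, 33.7 and 45.4 at ZT1 and 271, 64.8 and 253 at ZT13, with replicate 2 far below the other ZT13 livers.

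Lower were Elovl3 (above), Elovl5 (-1.47 ± 0.16), Insig2 (-1.70 ± 0.14), which holds SREBP in the endoplasmic reticulum, and Acss2 (-0.66 ± 0.18), which makes acetyl-CoA from acetate and lost its call without ZT1 replicate 3 (-0.54) and without ZT13 replicate 1 (-0.50). Insig2 had 320.5, 370.3 and 367 at ZT1 and 116, 101.3 and 106 at ZT13 (adjusted *P* = 1.54e-07). The lipogenic enzymes Acly (0.03 ± 0.23), Scd1 (-0.44 ± 0.25) and Me1 (0.16 ± 0.26) were not called.

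Cholesterol synthesis had 5 of 25 members lower and 2 higher, with 20 of the 25 differences below 0 and a median of -0.33. Hmgcs1, which makes the HMG-CoA of this pathway, had 490.4, 446 and 559 at ZT1 and 57.7, 164 and 189.7 at ZT13 (-2.02 ± 0.39, adjusted *P* = 0.00143). Sc5d fell by 0.70 (SE 0.16), Idi1 by 0.86 (SE 0.22), Cyp51 by 0.68 (SE 0.19) and Pmvk by 0.61 (SE 0.17). ZT13 replicate 1 was the lowest of its group in 24 of the 25 genes, and replicate 3 the highest in 22. Both higher calls were kept without each liver in turn, but only 2 of the 5 lower calls were, so the calls that held went evenly both ways. Without ZT13 replicate 1 the lower calls were 2, and without ZT1 replicate 3 they were 3. The call was lost for Idi1 without ZT13 replicate 1 (-0.64), for Cyp51 without ZT1 replicate 3 (-0.63) and without ZT13 replicate 1 (-0.48) and for Pmvk without ZT1 replicate 2 (-0.50), without ZT1 replicate 3 (-0.60), without ZT13 replicate 1 (-0.50) and without ZT13 replicate 2 (-0.54).

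Of 16 genes of bile acid synthesis and transport, 3 were higher and 4 lower. Cyp7a1, the rate-limiting enzyme of bile acid synthesis, had 74.4, 32.5 and 50.04 at ZT1 and 261, 141 and 105 at ZT13 (1.64 ± 0.41, adjusted *P* = 0.0104). Its repressor Nr0b2 (SHP) had 35.0, 61.1 and 49.9 at ZT1 and 7.83, 6.74 and 15.6 at ZT13 (-2.22 ± 0.46, adjusted *P* = 0.003). The export pump Abcb11 (chromosome 2, from 69238282 to 69342616) had 863, 881 and 1004 at ZT1 and 326, 391 and 352 at ZT13 (-1.36 ± 0.08, adjusted *P* = 3.78e-09), with a clear gap between groups. Hsd3b7, an early step of synthesis, fell by 1.28 (SE 0.08), and Amacr fell by 0.29 (SE 0.08), a call lost without ZT1 replicate 1 (-0.27) and without ZT1 replicate 2 (-0.26). The uptake carrier Slc10a1 rose by 0.43 (SE 0.13) and Akr1d1, a reductase of the pathway, by 0.60 (SE 0.15, adjusted *P* = 0.00943). None of the 3 rises was kept without each liver: Cyp7a1 lost its call without ZT1 replicate 2 (1.35) and without ZT13 replicate 1 (1.28), Slc10a1 without ZT1 replicate 1 (0.41), without ZT1 replicate 2 (0.37), without ZT13 replicate 1 (0.40) and without ZT13 replicate 3 (0.41) and Akr1d1 without ZT13 replicate 2 (0.48), so that 1 was left without ZT1 replicate 2 and 1 without ZT13 replicate 1.

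**Figure D4:**
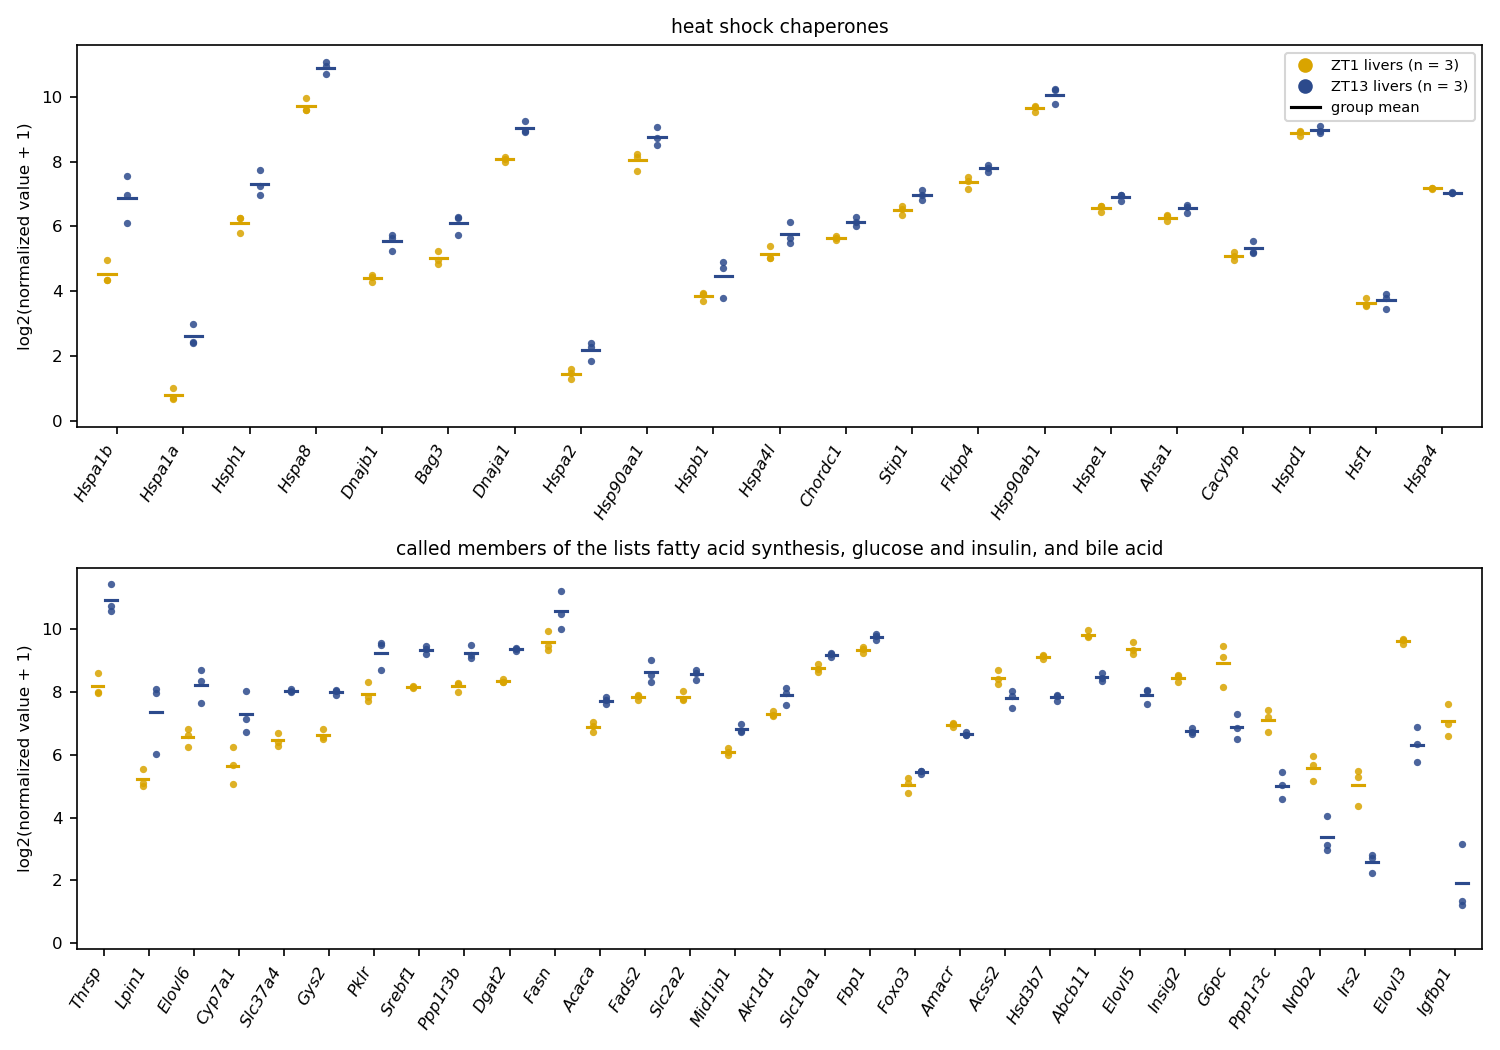
Level in each ZT1 liver (yellow) and ZT13 liver (blue), log2(normalized value + 1), with the group mean as a line. The upper panel has all 21 heat shock chaperones and the lower panel called members of the fatty acid synthesis, glucose and insulin, and bile acid lists, from the largest rise at the left to the largest fall at the right, Igfbp1.

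Fatty acid oxidation and ketogenesis had 3 of 26 members higher, 3 lower and a median of 0.05. Cpt1a, which admits fatty acids to mitochondria, had 221, 193 and 206 at ZT1 and 371, 344 and 308 at ZT13 (0.72 ± 0.12, adjusted *P* = 0.000411). Pdk4, which spares glucose in fasting, had 18.1, 29.3 and 30.4 at ZT1 and 2.68, 3.21 and 8.25 at ZT13 (-2.33 ± 0.39, adjusted *P* = 0.000466). The lipid droplet genes Plin5 and Plin2 moved apart, at 0.80 ± 0.15 and -0.79 ± 0.15. Fgf21, a fasting hormone, fell by 1.00 (SE 0.28) at low values, with 79 estimated reads over the ZT1 livers and 21 over those of ZT13, and lost its call without ZT1 replicate 1 (-0.88), without ZT1 replicate 2 (-0.89) and without ZT13 replicate 2 (-0.70). The carrier gene Slc25a20 rose by 0.30 (SE 0.09) and lost its call without ZT1 replicate 1 (0.26), without ZT1 replicate 2 (0.26) and without ZT13 replicate 2 (0.24). The oxidation enzyme Acadm (0.09 ± 0.09) was not called.

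Amino acid catabolism and the urea cycle had 8 of 22 members higher, all kept without each liver, and 2 lower. Asl, a urea cycle enzyme, had 253, 265 and 315 at ZT1 and 756, 585 and 571 at ZT13 (1.19 ± 0.13, adjusted *P* = 3.53e-06). The alanine aminotransferases Gpt2 (1.16 ± 0.14) and Gpt (0.70 ± 0.10), proline dehydrogenase Prodh (1.10 ± 0.14) and arginase Arg1 (0.45 ± 0.10) were higher, as were Sds and Hpd. Hal, which breaks down histidine, had 419, 488 and 483 at ZT1 and 248, 317 and 241 at ZT13 (-0.79 ± 0.13, adjusted *P* = 0.000358). The amino acid carrier Slc38a2 fell by 0.45 (SE 0.15) and lost its call whichever of the 6 livers was left out. Cps1 (0.21 ± 0.13), Otc (-0.13 ± 0.09) and Ass1 (0.11 ± 0.14), other urea cycle genes of the list, were not called.

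NAD synthesis had 5 of 16 members higher and none lower. Nampt (chromosome 12, from 32819545 to 32853349), the rate-limiting salvage enzyme, had 53.2, 51.1 and 51.7 at ZT1 and 135, 133 and 141 at ZT13 (1.37 ± 0.13, adjusted *P* = 7.27e-07). Nmrk1 rose by 1.29 (SE 0.17), Nnmt, which methylates nicotinamide, by 1.61 (SE 0.30), Nadk by 0.55 (SE 0.08) and Afmid by 0.51 (SE 0.14), the last losing its call without ZT1 replicate 1 (0.48), without ZT13 replicate 1 (0.47) and without ZT13 replicate 2 (0.46). Sirt1, an NAD-dependent deacetylase, had a difference of -0.18 ± 0.16 and was not called. Without ZT13 replicate 1, 1 member of the list was lower. Of 10 polyamine genes, 4 were higher. Spermidine synthase Srm had 13.9, 13.7 and 17.3 at ZT1 and 40.9, 30.2 and 37.2 at ZT13 (1.21 ± 0.15, adjusted *P* = 1.87e-05), Amd1 and Odc1 rose by 0.75 (SE 0.18) and 0.61 (SE 0.11), and Azin1 by 0.36 (SE 0.12), with a call lost without ZT1 replicate 1 (0.34), without ZT1 replicate 2 (0.36), without ZT1 replicate 3 (0.37), without ZT13 replicate 2 (0.33) and without ZT13 replicate 3 (0.27).

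Drug metabolism had 12 of 29 members higher and 3 lower. Por (chromosome 5, from 135670033 to 135735326), which gives electrons to the cytochromes P450, had 84.9, 79.7 and 111 at ZT1 and 613, 427 and 426 at ZT13, 5.32 times as much (2.39 ± 0.19, adjusted *P* = 1.07e-07). Alas1, which starts heme synthesis, had 172, 154 and 98.6 at ZT1 and 956, 832 and 832 at ZT13 (2.65 ± 0.69, adjusted *P* = 0.0126), with an SE that reflects the spread over all 18 livers, a call lost without ZT1 replicate 3 (2.42). Cyp2a5 had 129.7, 125 and 143 at ZT1 and 625, 1293 and 1112 at ZT13 (2.86 ± 0.28), and Cyp2b10, a target of the receptor CAR, had 13.8, 20.5 and 16.1 at ZT1 and 78.8, 55.8 and 73.5 at ZT13 (1.98 ± 0.16, adjusted *P* = 1.86e-07). Both belong to families of near copies whose reads may be shared. The receptor genes Nr1i3 (CAR) and Nr1i2 (PXR) rose by 1.01 (SE 0.24) and 0.59 (SE 0.11), and Cyp2e1 by 0.77 (SE 0.18).

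Among the other higher members Ugt1a1, Sult1a1, Gstt1, Gstt3, Abcb1a and Alas1 each lost the call without at least 1 liver, leaving 6 of 12, and the count was 7 without ZT1 replicate 1. The 3 lower members kept theirs. Gclc, which limits glutathione synthesis, had 459, 569.7 and 479 at ZT1 and 133, 310.3 and 201 at ZT13 (-1.30 ± 0.19, adjusted *P* = 0.000139). Cyp2c55 fell by 1.00 (SE 0.24) and Gstm1 by 0.48 (SE 0.11).

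Glucocorticoid response genes had 6 of 15 members higher and 1 lower. Fkbp5, a sensitive target of the receptor, had 14.1, 14.1 and 17.8 at ZT1 and 210.3, 49.7 and 96.5 at ZT13 (2.64 ± 0.38, adjusted *P* = 9.32e-05), with a wide spread at ZT13 but no overlap. The metallothionein Mt1 had 2.11, 1.501 and 1.19 at ZT1 and 22.1, 20.6 and 6.99 at ZT13 (2.62 ± 0.41), Zbtb16 rose by 1.91 (SE 0.39), and Per1 is described above. Mt2 (1.47 ± 0.38) and Tsc22d3 (0.82 ± 0.26) were called too, but Mt2 lost its call without ZT1 replicate 3 (1.30), without ZT13 replicate 1 (1.31) and without ZT13 replicate 2 (1.21), and Tsc22d3 without ZT1 replicate 1 (0.63), without ZT1 replicate 2 (0.77), without ZT13 replicate 2 (0.81) and without ZT13 replicate 3 (0.65). Klf9 was lower (-0.49 ± 0.14, adjusted *P* = 0.0219), a call lost without ZT1 replicate 1 (-0.41), without ZT1 replicate 2 (-0.51), without ZT13 replicate 1 (-0.49) and without ZT13 replicate 2 (-0.39). The higher calls were 4 without ZT13 replicate 2. Tat (0.03 ± 0.26) and Dusp1 (-0.61 ± 0.41) were not called.

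Early response genes had 3 of 12 measured members lower and 1 higher. Beside Egr1, Junb fell by 1.34 (SE 0.27) and Fos by 0.97 (SE 0.21), each with no overlap. Klf10 had 6.33, 5.68 and 15.2 at ZT1 and 32.3, 21.1 and 25.02 at ZT13 (1.53 ± 0.48, adjusted *P* = 0.0361), a call lost without ZT1 replicate 1 (1.36), without ZT1 replicate 2 (1.29), without ZT13 replicate 1 (1.37), without ZT13 replicate 2 (1.67) and without ZT13 replicate 3 (1.55). Myc had 6.13, 2.50 and 2.92 at ZT1 and 19.5, 47.5 and 11.2 at ZT13, and its difference of 2.32 ± 0.87 was not called (adjusted *P* = 0.0789), although the groups did not overlap. Its ZT13 livers lay far apart.

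Genes for folding and stress in the endoplasmic reticulum had 5 of 30 members higher and 1 lower. Herpud1 had 182, 212 and 216 at ZT1 and 419.6, 499 and 373 at ZT13 (1.07 ± 0.15, adjusted *P* = 6.62e-05). Creld2 rose by 1.27 (SE 0.27) and Ddit3 by 1.04 (SE 0.22), and both kept their calls without each liver. The main chaperone Hspa5 was at 0.51 ± 0.15 and Manf at 0.56 ± 0.16, and their calls were lost without ZT1 replicate 1 (0.39), without ZT1 replicate 2 (0.51), without ZT13 replicate 1 (0.52) and without ZT13 replicate 2 (0.45) for Hspa5 and without ZT1 replicate 1 (0.37), without ZT1 replicate 2 (0.59), without ZT13 replicate 1 (0.52) and without ZT13 replicate 3 (0.56) for Manf. Atf4 was lower, with 131, 116 and 118 at ZT1 and 94.4, 76.0 and 106 at ZT13 (-0.41 ± 0.12, adjusted *P* = 0.0228), and lost its call without ZT1 replicate 1 (-0.36) and without ZT13 replicate 2 (-0.28). The higher calls were 3 without ZT1 replicate 1, without ZT1 replicate 2 and without ZT13 replicate 1. At ZT17 against ZT5, 23 of these 30 genes were higher, against 10.3% of all genes, and 19 of the 30 had their highest mean at ZT17.

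Ribosome biogenesis had 11 of 33 members higher, none lower, 30 differences above 0 and a median of 0.37. Nop56, a ribosomal RNA methylation factor, had 17.1, 18.6 and 15.2 at ZT1 and 36.8, 26.6 and 26.9 at ZT13 (0.78 ± 0.14, adjusted *P* = 0.000746). Rrp12 rose by 0.85 (SE 0.16), and the RNA polymerase I subunit genes Polr1a and Polr1b rose by 0.70 (SE 0.13) and 0.49 (SE 0.11). Of the 11 calls, 8 were kept without each liver.

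Cytosolic ribosomal proteins had 5 of 79 members higher, under the background of 7.87%, and oxidative phosphorylation had 7 of 76, close to it, with none lower in either. The differences were small and mostly above 0, in 74 of 79 and 73 of 76 genes, with medians of 0.17 and 0.15. Rpl10 had 28.4, 21.9 and 28.7 at ZT1 and 62.8, 32.7 and 35.2 at ZT13 (0.65 ± 0.19, adjusted *P* = 0.0227), with ZT13 replicate 1 far above the rest, and lost its call without ZT1 replicate 2 (0.53) and without ZT13 replicate 1 (0.36). Cyc1, of respiratory complex III, had 139, 149 and 151 at ZT1 and 194, 168 and 168 at ZT13 (0.27 ± 0.07, adjusted *P* = 0.00902) and lost its call without ZT13 replicate 1 (0.20). No call of either list was kept without each liver. Without ZT1 replicate 1 the counts were 1 and 1, without ZT1 replicate 2 they were 3 and 2, and without ZT13 replicate 1 they were 0 and 1. Without ZT13 replicate 2 there were 9 ribosomal protein genes, and without ZT13 replicate 3 there was 1 lower. With the 6 livers alone both counts were 0. ZT13 replicate 1 was the highest of its group in 60 of the 79 and 53 of the 76 genes, and ZT1 replicate 1 the lowest of its group in 69 and 62. Ribosomal protein genes have many near copies in the genome, among which reads may be divided.

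The proteasome had 9 of 38 subunit genes lower and 2 higher. Psmd11, of the regulatory particle, had 111, 121 and 114 at ZT1 and 75.1, 78.1 and 69.3 at ZT13 (-0.64 ± 0.08, adjusted *P* = 3.8e-05), and Psma5 (-0.47 ± 0.08), Psma1 (-0.43 ± 0.08) and Psmc2 (-0.39 ± 0.07) were lower as well. Of the 9 lower calls, 6 were kept without each liver, and in 18 of the 38 genes the highest mean was at ZT1. The 2 higher members are subunits of the immunoproteasome. Psmb10 had 17.3, 17.6 and 20.5 at ZT1 and 31.1, 32.7 and 28.7 at ZT13 (0.71 ± 0.11, adjusted *P* = 0.000291). Psmb8 rose by 0.38 (SE 0.12), but its call was lost without ZT1 replicate 2 (0.40), without ZT1 replicate 3 (0.27), without ZT13 replicate 1 (0.38) and without ZT13 replicate 2 (0.33).

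Cell cycle and p53 genes had 4 of 17 members higher and 2 lower. Ccng2, an atypical cyclin, had 23.4, 27.2 and 30.5 at ZT1 and 7.42, 10.4 and 9.23 at ZT13 (-1.49 ± 0.17, adjusted *P* = 6.41e-06), and Trp53inp1 fell by 1.48 (SE 0.22). Wee1 (above) was the 1 higher call kept without each liver. Gadd45a (1.23 ± 0.37), Ccnd3 (0.47 ± 0.11) and Ccne1 (0.60 ± 0.19) were higher too, but Gadd45a lost its call without ZT1 replicate 1 (1.22), without ZT1 replicate 2 (1.14) and without ZT13 replicate 2 (0.83), Ccnd3 without ZT13 replicate 1 (0.39) and Ccne1 whichever of the 6 livers was left out, so that 2 higher calls were left without ZT1 replicates 1 or 2 and without ZT13 replicates 1 or 2. Mki67 (0.06 ± 0.28), a marker of dividing cells, was not called.

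Of 20 genes for nutrient sensing and autophagy, 3 were higher and 5 lower. Bnip3, a receptor for mitochondrial autophagy, had 123, 123 and 132 at ZT1 and 291, 284 and 254 at ZT13 (1.13 ± 0.09, adjusted *P* = 1.54e-07). Tfeb lost its call without ZT1 replicate 1 (0.51), without ZT1 replicate 2 (0.49), without ZT1 replicate 3 (0.52), without ZT13 replicate 1 (0.41) and without ZT13 replicate 2 (0.45), and Map1lc3a without ZT1 replicate 1 (0.25), without ZT13 replicate 1 (0.38) and without ZT13 replicate 2 (0.43), so that 1 higher call was left without ZT1 replicate 1, ZT13 replicate 1 or ZT13 replicate 2. The lower members, all kept, were Gabarapl1, with 220.5, 253 and 254 at ZT1 and 137, 185 and 137 at ZT13 (-0.67 ± 0.11, adjusted *P* = 0.000305), Rictor (-0.63 ± 0.11), the sestrins Sesn3 (-0.58 ± 0.13) and Sesn1 (-0.55 ± 0.12), and Sqstm1 (-0.46 ± 0.08), the cargo adaptor p62.

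Of 17 measured genes of the actin and tubulin cytoskeleton, 5 were lower and 2 higher. Tubb2a, a beta tubulin, had 175, 215 and 212 at ZT1 and 70.4, 57.9 and 59.4 at ZT13 (-1.66 ± 0.15, adjusted *P* = 4.71e-07), and Tubb4b fell by 0.78 (SE 0.12), Tuba4a by 0.49 (SE 0.11) and Vcl by 0.50 (SE 0.12). Tuba1a fell by 0.84 (SE 0.28) and lost its call without ZT1 replicate 1 (-0.84), without ZT1 replicate 2 (-0.80), without ZT1 replicate 3 (-0.89) and without ZT13 replicate 2 (-0.41). Actg1 had 119, 85.7 and 95.6 at ZT1 and 210.1, 134 and 193 at ZT13 (0.82 ± 0.19, adjusted *P* = 0.00614). Tuba1c rose by 0.40 (SE 0.13) and lost its call whichever of the 6 livers was left out. Tubulin and actin genes are families of similar sequence.

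The growth hormone list had 2 of 14 members higher and 2 lower. Igfbp4 had 566, 577 and 549 at ZT1 and 1394, 1175 and 1098 at ZT13 (1.11 ± 0.10, adjusted *P* = 6.9e-07), and Stat5b, which carries the growth hormone signal, was lower together with Igfbp1 (above) and fell by 0.75 (SE 0.15). Igfals rose by 0.43 (SE 0.14), a call lost without ZT1 replicate 1 (0.36), without ZT1 replicate 3 (0.43) and without ZT13 replicate 1 (0.25). Igf1 (-0.12 ± 0.12) and Ghr (-0.05 ± 0.11) were not called. Acute phase and iron genes had 1 of 19 higher and 1 lower. Hamp, the iron hormone hepcidin, had 329, 264 and 189 at ZT1 and 883, 472 and 372 at ZT13 (1.08 ± 0.35, adjusted *P* = 0.0439), a call lost without ZT1 replicate 2 (1.10), without ZT1 replicate 3 (0.86), without ZT13 replicate 1 (0.72) and without ZT13 replicate 2 (1.17). The fibrinogen gene Fgg had 4006, 4110.3 and 4033 at ZT1 and 2649.7, 2621 and 2121 at ZT13 (-0.72 ± 0.16, adjusted *P* = 0.00508). Saa1, an acute phase marker, had 27.2, 25.8 and 23.1 at ZT1 and 43.8, 623 and 68.0 at ZT13 and was not called (adjusted *P* = 0.14), with ZT13 replicate 2 far above the other livers.

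The dusk against dawn difference was then set beside the other 12 h differences of the series, ZT17 minus ZT5 and ZT21 minus ZT9, which share no liver with it. Of all genes, 10.3% were higher and 11.2% lower at ZT17 than at ZT5, and 6.16% were higher and 5.97% lower at ZT21 than at ZT9. Of the 1137 genes higher at ZT13, 348 were also higher at ZT17 than at ZT5, which is 30.6% of them and 23.4% of that list, and 268 were lower at ZT21 than at ZT9, which is 23.6% of them and 31.1% of that list. In the other direction, 91 of the 1137 were lower at ZT17 and 46 were higher at ZT21. Of the 1174 lower genes, 403 were also lower at ZT17 (34.3% and 24.8%), and 309 were higher at ZT21 than at ZT9 (26.3% and 34.7%), while 88 were higher at ZT17 and 42 lower at ZT21. The difference itself differed from ZT17 minus ZT5 in 1394 genes (9.65%) and from ZT21 minus ZT9 in 2683 genes (18.6%). Arntl, Clock and Npas2 were among the genes that differed from both, with Arntl at -2.09 here against 2.12 for ZT17 minus ZT5 and 3.56 for ZT21 minus ZT9. Of the 1137 higher genes, 810 had their highest mean at ZT13 and 633 their lowest at ZT1, with both in 449. Of the 1174 lower genes, 788 were lowest at ZT13, 619 were highest at ZT1, and 415 were both. Both sets were chosen by the difference between ZT13 and ZT1, which favours such extremes in advance. The counts therefore only describe the called genes, and no share over all genes is set beside them.

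For any cosine with a period of 24 h, the ZT13 to ZT1 difference equals the ZT17 to ZT5 difference minus the ZT21 to ZT9 difference. A departure from this is measured with all 18 livers. A component with a period of 12 h cancels in each of these differences, so the departure cannot register it. A gene without a called departure is therefore not shown to follow a 24 h cosine. The sign of the difference matched that of the cosine value in 2084 of the 2311 called genes (90.2%) and in 66.8% of all genes, and the Pearson correlation was 0.57 across all genes and 0.83 across the called ones, which were chosen for the size of this difference, a description over genes that are not independent and that share their livers.

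The departure was called in 6 genes (0.0415%), and in 1084 at an unadjusted *P*-value below 0.05. Without ZT5 replicate 2 it was called in 14. Cyp2b10 had means of 16.8, 13.5, 5.45, 69.4, 83.3 and 41.9 from ZT1 to ZT21, and its difference of 1.98 stood against -0.21 for the cosine (departure 2.19 ± 0.28, adjusted *P* = 0.00465). Mfsd2a (chromosome 4, from 122946850 to 122961188), a lysophosphatidylcholine carrier, had 6.89, 8.05 and 11.9 at ZT1 and 62.5, 31.2 and 47.0 at ZT13 and means of 8.95, 29.9, 31.7, 46.9, 23.3 and 30.1 (departure 2.51 ± 0.35, adjusted *P* = 0.00625). Mfsd2a was highest at ZT13, Cyp2b10 at ZT17. Dbp, with means of 0.308, 70.6, 111, 12.7, 1.94 and 0.936, departed by 2.10 ± 0.31 (adjusted *P* = 0.00939), and Tef, with means of 27.2, 167, 257, 169, 108 and 62.1, by 1.17 ± 0.17 (adjusted *P* = 0.00625).

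Hamp2, a near copy of Hamp whose reads may be shared with it, departed by 3.03 ± 0.47 (adjusted *P* = 0.0145). Its difference of 0.98 ± 0.27 at ZT13 against ZT1 was a call lost without ZT1 replicate 1 (0.82), without ZT1 replicate 2 (0.98) and without ZT13 replicate 1 (0.78). Dqx1, the remaining gene, was singled out after its values were seen. It did not differ between ZT13 and ZT1 beyond the threshold (4.95, 6.67 and 5.41 at ZT1 and 6.27, 7.17 and 6.12 at ZT13, 0.18 ± 0.13), while its means were 5.68, 10.3, 6.54, 6.52, 6.01 and 9.14 over the 6 times (departure 1.29 ± 0.22, adjusted *P* = 0.042). Nfil3, at -1.17 ± 0.22, was not called (adjusted *P* = 0.0876).

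**Figure D5:**
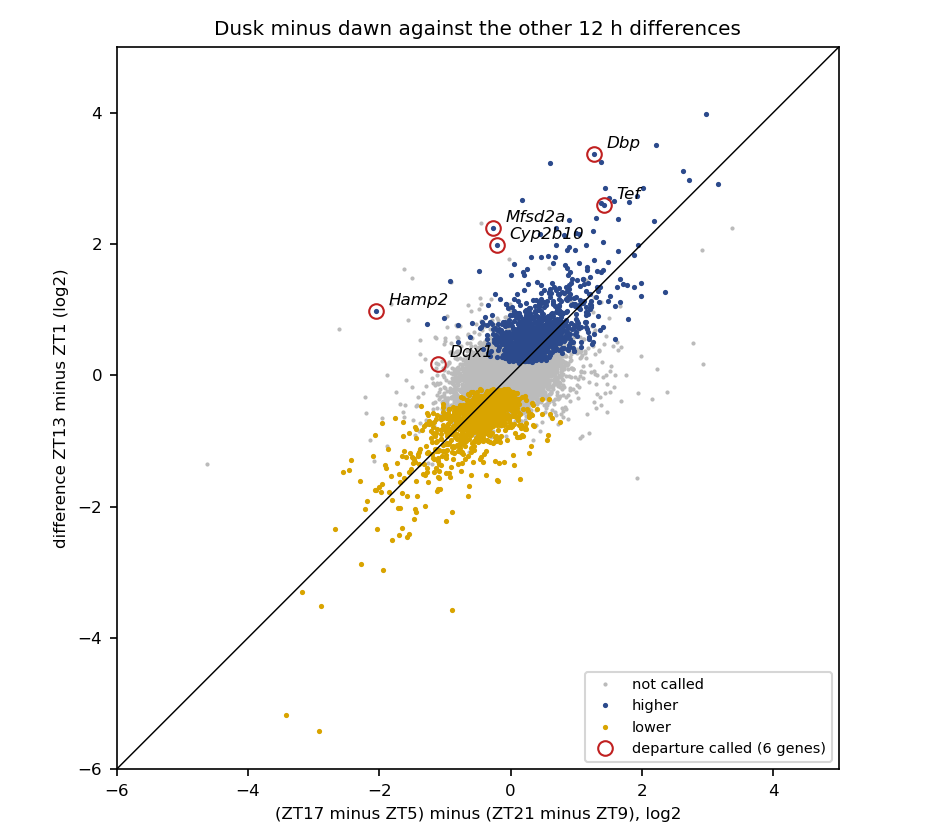
Difference ZT13 minus ZT1 (log2, vertical axis) against the value that a 24 h cosine through the other 4 times gives, (ZT17 minus ZT5) minus (ZT21 minus ZT9) (log2, horizontal axis), 1 point per gene, with the line of equal values. The 6 genes whose departure was called are ringed, 5 of them among the higher genes (blue), and Dqx1 lies among the genes not called (gray).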

How the data were processed

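Livers were taken from 18 wild-type mice, 3 at each of 6 times of day, and the 6 at ZT1 and ZT13 are compared here. Per the submitters' processing notes and the study's methods, reads were base-called with CASAVA 1.8.2, trimmed with Cutadapt and assigned to GRCm38 transcripts (Ensembl 84) with RSEM 1.2.20, which divides reads among similar genes. The authors then scaled the estimated counts with limma. The deposited signal is the estimated count plus 0.5 relative to the effective library size, on a linear scale, so a gene with 0 reads has the lowest value of its column.

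Tests used limma 3.58.1 (R 4.3.3) on log2(value + 1) for all 14449 genes, with 6 group means over 18 livers, a spread that follows the mean level and Benjamini–Hochberg adjustment at 0.05. Each liver came from 1 mouse. Gene coordinates are from GENCODE M21 (14405 genes matched). Named are all measured clock genes and the member of each other list with the lowest adjusted *P*-value in each direction. The 8 largest rises and falls are named too, among called genes with a mean of at least 1 and no overlap between the groups. So are the genes with the 6 lowest *P*-values of the departure among called genes. A few members of the lists are counted but not reported by name here. Other members are named to account for their list and were chosen after their values were seen. The members and lists were chosen with earlier results of these data known. On simulated data of 14449 genes for this comparison, 88 of 100 genes changed by 1 and 44 of 100 changed by 0.5 on the log2 scale were called. Of the genes left unchanged, 10 were called. The noise was normal and independent, and no gene with a low mean level was changed, so these shares do not cover such genes. Of the list members, 11 were not in the table. Alternatives were other offsets, filters, scalings and tests, and each liver left out in turn.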

Additional observations from a re-analysis of the deposited data

How the results depend on the processing

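No gene called higher here was called lower under any of the alternatives run, or the reverse. Leaving out 1 of the 18 livers at a time gave 750 to 1162 higher and 807 to 1203 lower genes, with the fewest higher genes without ZT1 replicate 2. The departure was called in 4 to 14 genes, the difference from ZT17 minus ZT5 in 1049 to 1432 and the difference from ZT21 minus ZT9 in 2223 to 2744. At an adjusted *P*-value below 0.01, limma called 578 genes higher and 622 lower, 657 for the difference from ZT17 minus ZT5 and 1543 for that from ZT21 minus ZT9. Cry1, at 0.06 with all livers, ranged from -0.035 without ZT1 replicate 1, a reversal, to 0.134 without ZT1 replicate 2, and the cause was not tested. Further settings were offsets of 0.5 and 0.1, a filter on low values, the 6 livers alone and no trend of the spread. They also included limma-voom on estimated reads, and median, quantile and total scaling. These settings gave 922 to 1161 higher and 940 to 1204 lower genes. No scaling moved the median of all genes by as much as 0.1, but such scalings hold that median near 0 in advance. Of the 66 called genes picked by the naming rule, 57 kept the call in all 16 settings. Those that lost it were Nr1d1, Akr1d1, Klf9, Klf10, Atf4, Rpl10, Cyc1, Hamp and Hamp2. Other members named to account for their lists are not in this count, and some of them, such as Fasn and G6pc, lost calls too. No paired analysis was possible because the labels number no replicates, and the numbers used here follow accession order. At this depth 520 genes were at the lowest value in at least 1 of the 6 livers, 15 of them in all 6, and their differences depend on the offset.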
